A study of Caenorhabditis elegans with 4 samples.

Results

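Of the 148 miRNA names in the small RNA count table of first larval stage (L1) *C. elegans*, 40 carry a number of 1000 or more. These four-digit names run from miR-1018 to miR-5551 and were chosen by name alone, with letter suffixes included. Another 105 names carry 1 to 3 digits, and the remaining 3 are *lin-4*, *let-7* and *lsy-6*. The libraries were made from whole animals of bleach-synchronized cultures kept at 20 degrees on standard plates, with 2 libraries of the wild type N2 and 2 of *pry-1(mu38)*. The gene *pry-1* makes an Axin, which restrains WNT signaling as a scaffold, and *mu38* is one of its mutant alleles. *pry-1* mutants grow more slowly than N2, and the study's methods give hours of growth, longer for the mutants, for its qRT-PCR cultures but not for these libraries. The comparison of the strains asks which miRNAs depend on *pry-1* in the L1 larva.

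A miRNA is cut from a hairpin transcript and guides the Argonaute complex to mRNAs that pair with its seed, the bases next to its 5′ end. miRNAs were numbered as they were found, so low numbers mostly went to abundant, conserved miRNAs that cloning recovered, and high numbers to rare ones that deep sequencing added. Some of the late ones are mirtrons, whose hairpin is a whole short intron that splicing frees, so that the first cut of the usual pathway is not needed.

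The mature sequences of 5 of the 6 most abundant placed four-digit miRNAs are given first, 5′ to 3′, with the seed (bases 2 to 8) in capitals, because they carry most of the members' reads.
miR-1022: aAGAUCAUuguuaggacgccauc
miR-1822: cGAGCUGCccucagaaaaacucu
miR-1829c: aAGCGAAAuucaagaugguugua
miR-2209a: aGAGAUCAgcgguuacacuaca
miR-1821: uGAGGUCUuauaguuagguaga
The sequences came from the study's list of detected miRNAs, which holds 35 of the 40 names, and positions are those of the Ensembl annotation of WBcel235. The hairpin of miR-1022 lies outside other genes on chromosome X (6435425 to 6435512, minus strand). That of miR-1822 lies in an intron of ZK84.2 on chromosome II (6015534 to 6015627, plus strand), and that of miR-1821 outside other genes on chromosome V (3042530 to 3042633, minus strand).

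Sharing a seed was rare. Only 3 of the 35 sequences (8.57%) had bases 2 to 8 in common with another listed miRNA, against 38 of 88 (43.2%) among the 1 to 3 digit names. miR-2209a shared its seed GAGAUCA with miR-80, miR-81 and miR-82, which belong to the bantam-related miR-58 family.
miR-80: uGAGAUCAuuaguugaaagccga
miR-81: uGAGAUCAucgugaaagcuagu
miR-82: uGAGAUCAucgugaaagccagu
The other pair is miR-2208a and miR-2208b. A first base of U, which most animal miRNAs carry, was found in 12 of 35 four-digit sequences (34.3%) and in 62 of 88 of the others (70.5%). Median lengths were 22 and 23 bases.

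Among the letter families shown here, only the miR-2208 pair had the same seed. The miR-2208 and miR-2209 hairpins stand together on chromosome IV, all 5 within 5979 bp (1021303 to 1027281) and outside other genes, with miR-2208b, miR-2209a and miR-2209c inside 702 bp. Their mature sequences are shown with the seed in capitals.
miR-2208a: aAGUGUACccgaaucugauaucc
miR-2208b: aAGUGUACccggaucugauaucc
miR-2209a: aGAGAUCAgcgguuacacuaca
miR-2209b: aGAGAUGAgcgguugugcuuc
miR-2209c: aAAAGACCaccgguuacacuaca
Counted from the 5′ end, miR-2208b differed from miR-2208a by the single substitution A12G. The seed of miR-2209b differed from that of miR-2209a by C7G. miR-2209c had 5 seed differences from miR-2209a, yet both ended in the same 13 bases. The 3 miR-1829 hairpins lie apart on chromosome X in introns of 3 genes, *gas-1* (a subunit of mitochondrial complex I) for miR-1829a, F20D1.3 for miR-1829b and *piki-1* (a phosphoinositide 3-kinase) for miR-1829c.
miR-1829a: aAGGGGACuucuaauuguuugua
miR-1829b: aAGCGAUCuucuagaugguugua
miR-1829c: aAGCGAAAuucaagaugguugua
Each pair of the miR-1829 family differed at 2 or 3 of the 7 seed bases, so no seed was shared, while miR-1829b and miR-1829c had their last 11 bases in common.

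Mirtron hairpins were found mainly under the four-digit names. An annotated hairpin filled its intron exactly, with 0 bases left at either end, for 8 of 40 four-digit names (20%) and for 1 of 105 others (0.952%), miR-62 in *ugt-50*. For 6 of the 8, miR-1018, miR-4807, miR-4808, miR-4809, miR-4810 and miR-4923b, the intron belongs to 1 noncoding RNA gene, Y59E1B.1 on chromosome X, and these hairpins lie within 7233 bp (1872466 to 1879698, plus strand). The introns were 56 to 61 bases long. The other 2 are miR-1020 in T16G12.1 (chromosome III) and miR-4816 in T09B4.2. Introns end in AG, and the mature sequences below show that 3′ end in capitals where they end in ACAG.
miR-1018: agagagaucauuggacuuACAG
miR-4807: aaaugcgacuucugggcuuACAG
miR-4808: aagcucuauucucucuuACAG
miR-4810: ugaguaucgcaucaacuuACAG
miR-4923b: aacggcggcaauuuguuuACAG
miR-62: ugauauguaaucuagcuuACAG
The ending occurred in 6 of 35 four-digit sequences (17.1%) and 2 of 88 others (2.27%). miR-4809, from the same host, ended differently but shared a run of 12 bases (capitals) with miR-4807.
miR-4807: aaaugcgACUUCUGGGCUUacag
miR-4809: uaauacaACUUCUGGGCUUcca

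Many further four-digit hairpins sit deeper in introns. In total 22 of 40 (55%) lay in an intron of the same strand, against 20 of 105 (19.0%) among the other names. Among the hosts are *pash-1*, a partner of Drosha in cutting miRNA hairpins, with miR-1828 in a 280 base intron, and *arx-1*, an Arp2/3 complex subunit, with miR-5546 in an intron of 4898 bases. *paic-1* and *gmps-1*, both purine synthesis genes, held miR-1830 and miR-2216. Each hairpin was given 1 context, a gene of the same strand before the opposite one, then an intron before an exon. By this rule only miR-2210 (in ZK593.2) and miR-4813 (in *idhg-1*) were assigned to an exon. Another hairpin (miR-1824) lay in an intron of the opposite strand, and 15 lay outside other genes. The share on chromosome X was alike for both kinds of name, 12 of 40 (30%) and 35 of 105 (33.3%).

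**Figure D1:**
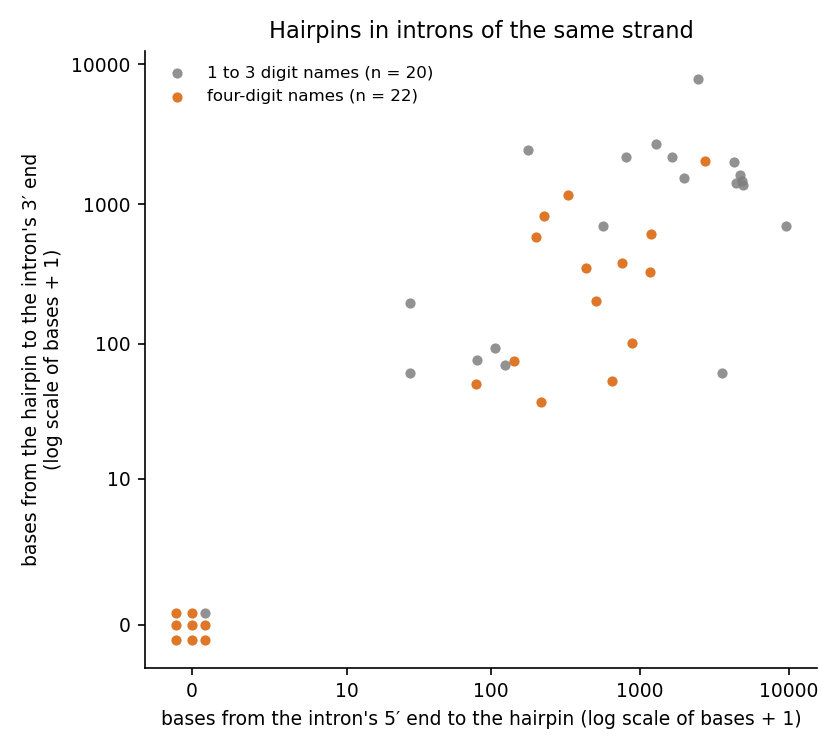
Bases from the 5′ end of the intron to the hairpin (x axis) and from the hairpin to the 3′ end of the intron (y axis), both on a log scale of bases + 1, for 22 four-digit names (orange) and 20 names of 1 to 3 digits (grey) in an intron of the same strand. The 9 points at 0 and 0 are spread apart for display, and 8 of them are four-digit names.

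N2 replicates 1 and 2 held 6651178 and 6491918 counts, and the mutant replicates 3284425 and 4651818. No cell held 1 to 4 counts, so a cell at 0 can stand for up to 4 reads. miR-1 (muscle), miR-124 (neurons) and *lsy-6* (gustatory neurons) were read at 70 or more counts in every library, and miR-228, known from glia, was the most abundant miRNA. Columns of the table ran up to 3 rows out of step with each other in places. Counts were therefore placed with the help of the study's list of total reads, and N2 replicate 1 kept its names. By these totals 32 four-digit names were placed, 2 on their own row and 30 displaced. Another 3 (miR-1018, miR-1020 and miR-1832a) were placed by their neighbours alone and entered no test, and 5 were not placed. A check that the placement did not use was the agreement of replicates. Over 20 displaced members without a 0, the median difference between the N2 replicates was 1.80 on the log2 scale as deposited and 0.26 as placed. For *pry-1(mu38)* it was 0.41 both times, so this check cannot show whether the mutant counts were moved to the right names.

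The four-digit miRNAs were rare. The 32 placed ones took 0.1003% and 0.0904% of the N2 counts and 0.0940% and 0.0903% of the mutant ones. Their median in N2 was 4.68 and 3.68 CPM (counts per 1000000, normalised with TMM factors) and in the mutant 3.86 and 3.87 CPM. For 78 placed names with 1 to 3 digits the medians were 162 and 160 CPM (N2) and 112 and 227 CPM (mutant), which is 34.6, 43.4, 29.0 and 58.6 times as high within each library. Between 22 and 23 of the 32 members stood under 10 CPM in each library, and so did 10 to 14 of the 78 others. These are descriptions over names, which are not replicates, and no test was made. With all 40 names of N2 replicate 1, placed or not, the median was 5.02 CPM against 199 for 104 others.

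**Figure D2:**
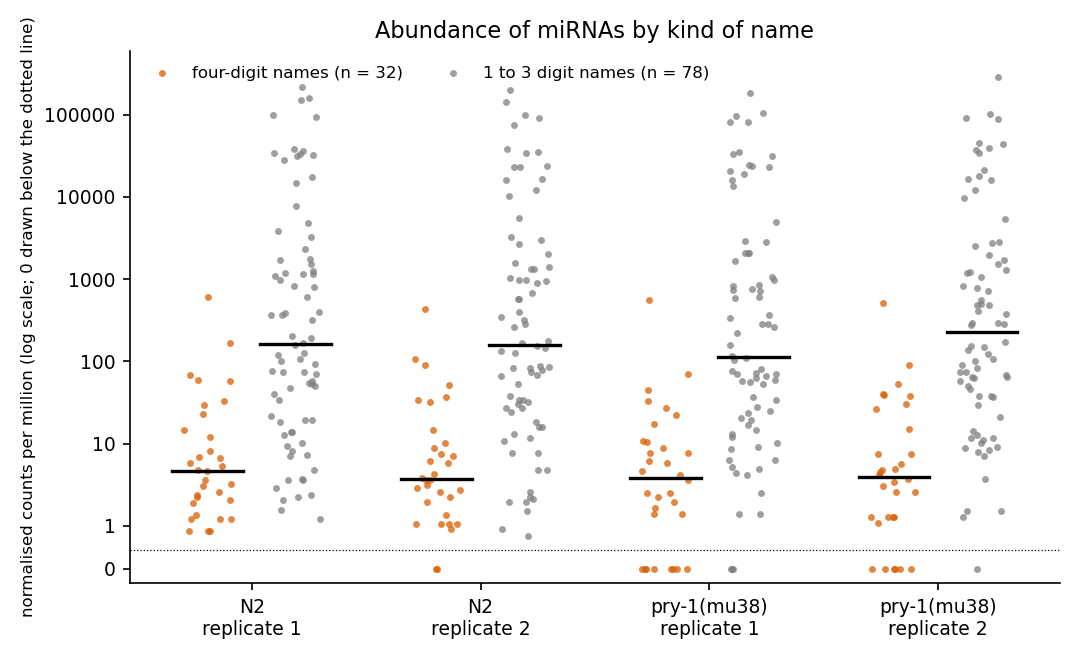
CPM (counts per 1000000, log scale, with 0 drawn below the dotted line) of 32 four-digit names (orange) and 78 names of 1 to 3 digits (grey) in each library, where each point is a miRNA and each black bar a median. The four-digit medians lie between 3.68 and 4.68 CPM and those of the other names between 112 and 227 CPM.

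miR-1022 was the exception. N2 held 3538 and 2892 reads of it and the mutant 2007 and 2380, or 602, 435, 553 and 512 CPM. It ranked 32nd or 33rd of 113 placed miRNAs in every library and was the only member above the median of the 1 to 3 digit names in all 4. It alone made up 49.3% to 65.0% of the members' reads. The strains overlapped, with 518 ± 118 CPM in N2 and 533 ± 29.0 CPM in *pry-1(mu38)* (SD, n = 2 each). miR-228, for scale, was 335 to 562 times as abundant.

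miR-1822 came next, with 979 and 710 N2 counts against 255 and 244 mutant counts. Normalised, these were 167 and 107 against 70.3 and 52.5 CPM, so the strains did not overlap, and its ranks were 40 and 45 for N2 and 47 and 60 for the mutant. Together with miR-1022 it took 61.4% to 73.3% of the members' reads. No other member placed by its total reached 100 CPM in any library.

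A middle group of 8 members held between 201 and 1584 counts in all. miR-1829c had 400 and 596 N2 counts against 164 and 424 in the mutant, and overlapped. miR-2209a had 336 and 343 against 98 and 186, which is 57.17 and 51.53 against 27.01 and 40.02 CPM, with both mutant libraries below both N2 libraries. For miR-5546 the counts were 353 and 243 against 119 and 179, and the normalised values overlapped. miR-1821, on chromosome V, also overlapped, with 174 and 223 against 80 and 174 counts.

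miR-1829b had 192 and 213 N2 counts against 63 and 141 mutant counts, or 32.7 and 32.0 against 17.4 and 30.3 CPM, so that the groups were separate by a small margin. Its relative miR-1829a was lower, at 70 and 68 against 39 and 69 counts, and overlapped. The order miR-1829c, miR-1829b, miR-1829a held in every library. miR-1830 varied most between the mutant libraries of this group, at 38 and 121 counts beside 133 and 97 for N2. miR-4814 had 85 and 59 N2 counts against 22 and 35, and the mutant libraries were the lower ones.

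The replicates of a strain differed by a median of 0.35 on the log2 scale in N2 (30 members read in both libraries) and 0.40 in *pry-1(mu38)* (23 members). The same measure was 0.36 and 0.53 for the names with 1 to 3 digits. The difference was under 2-fold for 25 of 30 members in N2 and 19 of 23 in *pry-1(mu38)*.

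Zeros were unevenly spread. After placement a 0 is either a cell at 0 or a value for which the placement found no cell. Of the 32 placed members, 9 had a 0 in at least 1 library, and N2 replicates 1 and 2 had 0 and 2 members at 0, while the mutant replicates had 8 and 6. Of the 81 other placed names 0, 0, 3 and 1 did. The *pry-1(mu38)* libraries were also the shallower ones, where 5 counts are worth 1.38 and 1.08 CPM against 0.85 and 0.75 in N2. The names are those of N2 replicate 1, where each member has at least 5 counts, so the 0 there is set by the table. The part of depth and of this naming in the zeros was not tested.

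For 5 members both *pry-1(mu38)* libraries stood at 0. Among these, miR-2209b had 27 and 18 N2 counts. At the depth of the mutant libraries its N2 levels would give 16.7 and 9.81 counts in replicate 1 and 21.3 and 12.6 in replicate 2, all above the smallest listed count of 5. With each mutant library set at the floor of 5 counts, the mean N2 CPM was 2.97 times the mean mutant CPM. This is a bound on the means and not on each pair of libraries. N2 replicate 1, which also set the listed names, enters the N2 mean. For miR-2209c, with 13 and 7 counts in N2, the same bound on the means was 1.33-fold. The lower N2 value would give only 3.82 and 4.89 counts at the mutant depths, so a difference from it was not detectable. miR-2208a had 7 and 9 counts in N2, which would give 4.32 and 4.91 counts in mutant replicate 1, under the floor, and 5.54 and 6.28 in replicate 2, just over it. Its bound on the means was 1.04-fold. miR-1823 (5 and 7) and miR-2207 (5 and 0) gave no fold, since their mean N2 CPM lay under the floor of the mutant libraries.

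The other members with a 0 had reads in a mutant library. miR-2208b had 19 and 15 N2 counts against 9 and 0. miR-1828, the miRNA in *pash-1*, had 11 and 24 against 0 and 21, so that its mutant replicates spanned both N2 values. miR-4929 had 15 and 7 against 0 and 6 counts, and the mirtron miR-4923b had 7 and 0 against 0 and 6. Of the 5 members of the chromosome IV cluster, miR-2209a alone was read in all 4 libraries. miR-2208a and miR-2208b differ at 1 base, and the sources used here do not say how reads that fit both were counted, so their separate counts are uncertain.

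**Figure D3:**
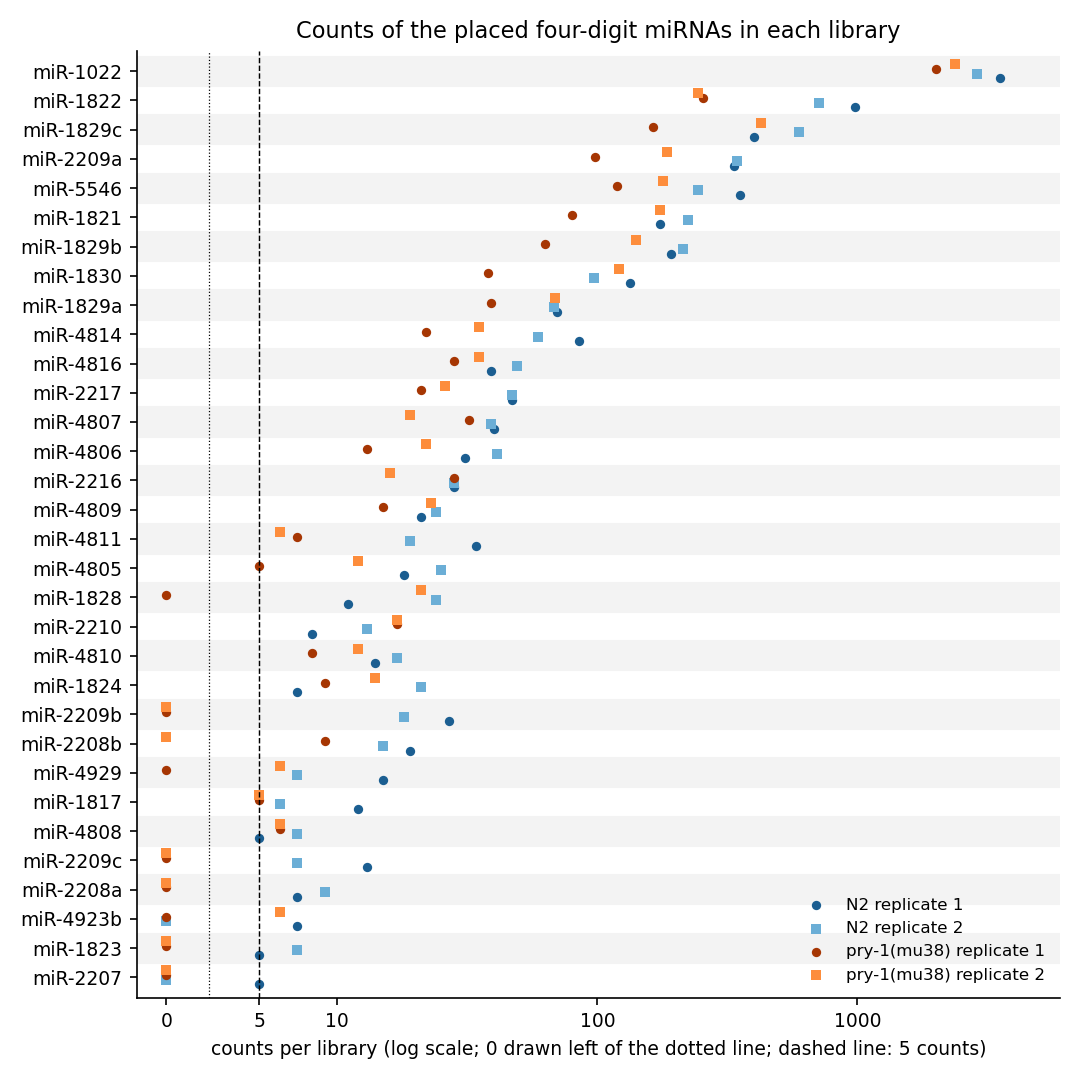
Counts (log scale, with 0 drawn left of the dotted line) of the 32 placed four-digit miRNAs in N2 (blue) and *pry-1(mu38)* (orange) replicates 1 (circles) and 2 (squares), ordered by total count. The dashed line marks 5 counts, the smallest listed value, and miR-2209b, miR-2209c, miR-2208a, miR-1823 and miR-2207 stand at 0 in both mutant libraries.

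Between the strains no miRNA passed an adjusted p-value of 0.05 in edgeR's quasi-likelihood test, 0 of 101 tested (0%), of which 24 were four-digit names. At an unadjusted p-value under 0.05 there were 9 of 101 (8.91%) and 3 of the 24 members. DESeq2 called 2 miRNAs, neither of them a four-digit name. The members' median log2 fold change, *pry-1(mu38)* against N2, was -0.21, beside -0.02 over all tested miRNAs. It was above 0 for 8 and below 0 for 16 members (66.7%), and below 0 for 57 of all 101 tested (56.4%). The strains did not overlap for 9 members with *pry-1(mu38)* lower (37.5%, over all tested 24.8%) and for 3 with *pry-1(mu38)* higher (12.5%, over all tested 17.8%). Names were listed only where N2 replicate 1 had at least 5 counts, and the part of this in the direction was not tested. With at least 10 counts in every library the median was -0.08 for 16 members (7 above 0, 9 below), beside 0.08 over 91 tested. There, 0 members had an unadjusted p-value under 0.05 in edgeR. The p-values measure the spread between these libraries only, since nothing says that replicates came from separate cultures.

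The 3 members with an unadjusted p-value under 0.05 were miR-2209b, miR-2210 and miR-1822. For miR-2209b the adjusted p in edgeR was 0.221, and its fitted log2 fold change of -7.25 depends on the prior count and is no bound. For miR-1822 the log2 fold change was -1.15 ± 0.38 (SE), with an adjusted p of 0.493 in edgeR. Without *pry-1(mu38)* replicate 1, which left no spread within the mutant, the log2 fold changes were -7.41 for miR-2209b and -1.47 for miR-1822. miR-2209b entered the test through its N2 counts alone. Over the alternatives that kept every library, the adjusted p of miR-1822 in edgeR ran from 0.203 (replicate block) to 0.546 (rows as deposited). miR-2209b passed under upper-quartile normalization (adjusted p = 0.00999 in edgeR). Over its other alternatives with every library, the adjusted p ran from 0.0504 (DESeq2) to 0.546 (edgeR, rows as deposited). With 4 counts put in each cell at 0 its log2 fold change was -1.84 (adjusted p = 0.471 in edgeR).

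miR-2210 was the largest rise in fitted values among members with separate groups. N2 gave it 8 and 13 counts and the mutant 17 and 17, and its log2 fold change was 1.31 ± 0.43 (SE), with an adjusted p of 0.493 in edgeR. The other 2 tested members with both mutant libraries higher were the mirtrons miR-4809 and miR-4816. The mirtrons miR-4808 (5, 7, 6 and 6 counts, near the smallest listed count of 5) and miR-1018 were also higher in both, and neither was tested. The mirtrons miR-4807, miR-4810, miR-4923b and miR-1020 overlapped. miR-4809 had 21 and 24 N2 counts against 15 and 23, which normalised to a log2 fold change of 0.34. miR-4816 had 39 and 49 against 28 and 35 counts, or 6.64 and 7.36 against 7.72 and 7.53 CPM, a log2 fold change of 0.12.

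The largest falls in fitted values with separate groups, beside miR-2209b and miR-1822, were miR-4811, miR-4814 and miR-4805. miR-4811, outside other genes on chromosome X, had 34 and 19 N2 counts against 7 and 6. Its log2 fold change was -1.42 ± 0.56 (SE), with an adjusted p of 0.493 in edgeR, and it was -0.83 without N2 replicate 1 and -1.80 without *pry-1(mu38)* replicate 1. miR-4805 had 18 and 25 against 5 and 12 counts (log2 fold change -0.76). miR-4814 had -0.77 and miR-2209a -0.70, and none of these passed the test.

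**Figure D4:**
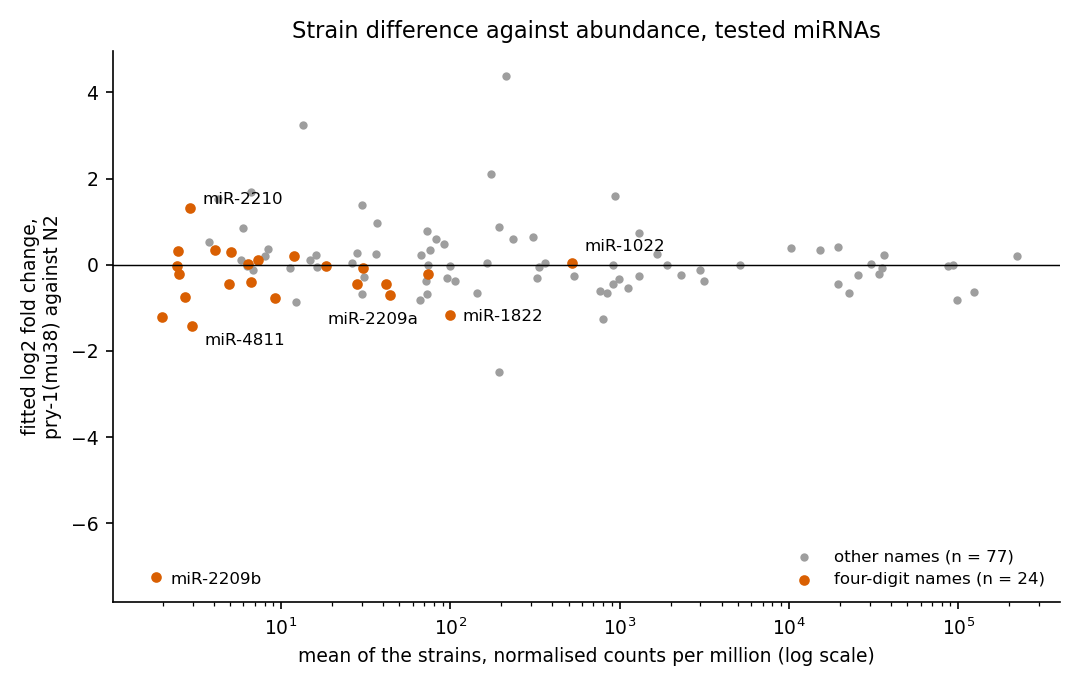
Fitted log2 fold change, mutant over N2 (y axis), against the mean of the strains in CPM (x axis, log scale) for the 101 tested miRNAs, 24 four-digit names in orange and 77 others in grey. miR-2209b at -7.25 stood at 0 in both mutant libraries, and no point passed an adjusted p of 0.05 in edgeR.

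The series of numbers differed in abundance. The names from miR-1817 to miR-1832a had a median of 317.5 counts over the 4 libraries (10 placed), those from miR-2207 to miR-2219 45 counts (9 placed) and those from miR-4805 to miR-4816 83 counts (9 placed). Of the 9 members with a 0, 5 belonged to the miR-2207 to miR-2219 series, 2 to the first and none to the third, and miR-4923b and miR-4929 made up the rest. The median log2 fold changes were -0.15 (8 tested), -0.55 (6 tested) and -0.25 (8 tested), with 0 called in each by edgeR. By position, members outside other genes had a median of -0.73 (8 tested, 7 below 0), those deeper in an intron of the same strand -0.33 (10 tested, 8 below 0), and mirtrons 0.07 (4 tested, 1 below 0). The 3 tested miRNAs of the chromosome IV cluster (median -1.22, 3 below 0) count both in the miR-2207 to miR-2219 series and in the group outside other genes. Over all 101 tested miRNAs, 57 (56.4%) were below 0, and the fold changes of 1 to 3 digit names were not split by position. The groups by position were not in the written design. The groups were not tested against each other.

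The mirtrons of Y59E1B.1 were read unequally although they share a host transcript. miR-1018, placed by its neighbours alone, had 398 and 488 N2 counts against 338 and 746. The placed ones were far below it, with 40, 39, 32 and 19 counts for miR-4807 in the same order, 14, 17, 8 and 12 for miR-4810, and 5, 7, 6 and 6 for miR-4808. In N2 replicate 1, whose names need no placement, miR-1018 had 79.6 times the reads of miR-4808 and 9.95 times those of miR-4807. Outside that gene, miR-1020 (also placed by neighbours) had 16 and 23 against 8 and 26 counts.

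For 6 members the table holds a second row under the same name, and no row carries an arm label. miR-1830 had nearly equal rows, with 107, 82, 27 and 84 counts in the second row, or 69.4% to 84.5% of the main row. miR-1022 was one-sided, with 30, 35, 15 and 17 counts, 0.714% to 1.21% of the main row. For miR-4814 the second row reached 52.9% and 50.8% of the main row for N2 but 27.3% and 34.3% for the mutant, from 45, 30, 6 and 12 counts. These second rows were placed by their neighbours alone.

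The 5 members without a placed row are known from N2 replicate 1 only. miR-4813, whose hairpin overlaps an exon of *idhg-1*, had 565 counts there, more than any member but miR-1022 and miR-1822. miR-4812, in *piki-1* like miR-1829c, had 72, miR-5551 had 37, miR-2214 had 13 and miR-2219 had 6. The probability of the placement of miR-4813 was 0.774, just under the 0.8 required, and the lowest accepted were miR-4807 (0.825), miR-1817 (0.882) and miR-4808 (0.897).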

How the data were processed

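L1 small RNA was sequenced in 4 libraries, 2 of N2 and 2 of *pry-1(mu38)*. The deposited values are counts of reads, not normalized. The study's methods report perfect alignments to the genome and to miRNA precursors of WBcel235. The submitters' processing notes name BWA and DESeq, and the series' design text names a miRDeep program and the miRBase annotation. Versions and the treatment of reads fitting several miRNAs are not given in the sources used here. All columns were mapped to samples by strain letter and number, and 0 columns had no sample.

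The placement of displaced counts used a hidden Markov model that kept the row order within each library and allowed displacements of up to 3 rows. A name was accepted with a probability of at least 0.8 where its 4 counts met the listed total, or missed it by at most 4 reads per cell at 0 plus 3 reads, or by 0.1%. For the 32 placed members 17 sums were exact and 15 lay within this allowance. Of 126 listed names 114 were placed and 12 were not. Tested on 20 simulated tables, 95.8% of four-digit names were placed and 0.163% of these wrongly. Those tables were drawn from the placed counts, with each total equal to the true sum of reads. Here 23 placed members had no 0 yet only 17 sums were exact, so this error rate may not hold for these data. The written design assumed displacements taken from a neighbour, and the model replaced that rule after the smallest nonzero count of 5 had been seen. miR-45, identical in its mature sequence to miR-44, was left out.

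The test was that of edgeR 4.0.16, run in R 4.3.3 (TMM factors, filterByExpr with a minimum of 10 counts, glmQLFit and glmQLFTest, two-sided, Benjamini-Hochberg over 101 miRNAs, strain only). TMM factors were 0.884, 1.03, 1.10 and 0.999 in the order of the libraries above. On simulated counts of 101 miRNAs with 20 changed 4-fold, the test recovered 96.3% at a dispersion of 0.05 and 51.5% at the dispersion of these libraries, 0.149. The changed miRNAs were drawn from all 101, and recovery was not computed for the rarer four-digit names alone. The SE of a log2 fold change was back-calculated as its absolute value divided by the square root of the quasi-likelihood F statistic. DESeq2 1.42.0 was an alternative. Named members are the 10 most abundant placed ones, those with a 0, the 5 largest rises and falls with separate groups, and the letter families. miR-4813 and other members without a placed row are named with the N2 replicate 1 count. The mirtrons and miR-4807 were named after their values were seen. The members, lists and tests were chosen with earlier results of these data known. Reads were amplified by PCR and carry no molecular identifiers, so they are not independent molecules.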

Additional observations from a re-analysis of the deposited data

How the results depend on the processing

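The limits are the depth, since 22 or 23 of 32 members stood under 10 CPM in each library, the 2 libraries per strain, and the placement of 30 of 32 members. The number of miRNAs called was 0 and became 4 (1 member, miR-2209b) under upper-quartile normalization, 1 without a filter and 2 with the DESeq2 Wald test. Leaving out each library gave 0 to 11 calls, 0 to 2 of them members, and a members' median log2 fold change of -0.41 to -0.25. Such fits assume that a lone library varies like the other strain. The lowest median and both members called came without *pry-1(mu38)* replicate 1. With library totals alone the median of all tested miRNAs moved from -0.02 to 0.11 and that of members from -0.21 to -0.13, with 11 above and 13 below 0. The replicate numbers were not shown to pair the libraries (correlation of deviations 0.33 over 101 miRNAs), and a replicate block gave 0 calls, 20 unadjusted and a members' median of -0.34.

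With the rows as deposited, the names with 1 to 3 digits had a median 36.3 times that of members, against 52.3 times over all libraries as placed, and it was 14.2 times over all rows of N2 replicate 1, where second rows count separately. The members' share was 0.236% as deposited, 0.121% over all rows of N2 replicate 1 and 0.121% of the total without miR-228, against 0.0937%. Zeros among the placed members numbered 16, against 13 over all 40 names with the rows as deposited. They numbered 0 in N2 replicate 1 alone and 8 to 16 without 1 library. There were 8 when *pry-1(mu38)* replicate 1 was left out and 10 when replicate 2 was.

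The sign of a log2 fold change turned for members that passed no test. As deposited it was 0.86 for miR-1829c, 0.28 for miR-2209a, 0.17 for miR-5546, 0.46 for miR-1829b, -3.10 for miR-4816 and 1.29 for miR-4805. By the placement, which replicates could not check for the mutant, those rows hold counts of other miRNAs. Scaling by library totals and by upper quartiles gave 0.032 and 0.029 for miR-1821 and 0.11 and 0.097 for miR-1830. For miR-1830 it was 0.020 with at least 10 counts in every library, 0.010 with exact totals only and 0.0054 with 4 counts in cells at 0, which gave 0.091 for miR-1828. Leaving out a library gave -0.13 to 0.29 for miR-1022, -0.64 to 0.12 for miR-1829c, -0.36 to 0.16 for miR-1821, -0.67 to 0.40 for miR-1830, -6.87 to 0.62 for miR-1828 and -7.00 to 0.021 for miR-2208b. The causes of these turns were not tested. The alternatives with exact totals, a probability of 0.95 and 4 counts in cells at 0 were chosen after seeing the data.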
